A study of Mus musculus with 16 samples.

Results

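The map was made from 1 PBAT library of mouse oocytes with a diameter of 60–65 μm, and its members were all 10-kb windows of chromosomes 1 to 19 that held at least 50 CpG calls. Of 246285 windows on these chromosomes, 233748 (94.9%) passed that minimum. PBAT, post-bisulphite adapter tagging, samples the whole genome, and each call is 1 read of 1 CpG cytosine, counted as methylated where bisulphite did not convert it. Adjacent windows of 60% methylation or more were joined into high runs and adjacent windows under 15% into low runs, whereas a window with fewer than 50 calls ended a run. This gave 11121 high runs and 31597 low runs. The series held 16 samples in all, and the map was set beside 2 RNA-seq libraries (A and B) of the same size class, given as RPKM, a read count scaled to transcript length and library size. All 3 samples came from Wild-type oocytes with the background strain C57BL/6 by the labels (C57BL/6Babr in the methods) and without a labelled treatment. The methods put the collection of this size class at post-natal days 13 to 16, whereas the sequencing statistics put the mice of the RNA-seq libraries at days 12 to 18. By the methods the oocytes of the other classes used further below also came from C57BL/6Babr mice. Smaller oocytes were taken from mostly younger mice and GV (fully grown) oocytes from older ones. Size of the oocyte and age of the mouse therefore cannot be told apart. The PBAT library was a pool of 200 oocytes without a replicate, so that no difference between conditions could be tested, and the values below are descriptions of these libraries, given with their range over the 19 chromosomes for the main shares and run lengths. In such pools, fewer cells of a type and less RNA per cell cannot be told apart, and a window at an intermediate level can hold a mixture of methylated and unmethylated molecules.

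DNA methylation is erased in the germ line and laid down again in the female during oocyte growth, by the de novo methyltransferase DNMT3A with its cofactor DNMT3L. In fully grown mouse oocytes methylation is known to lie mostly over the bodies of transcribed genes, where RNA polymerase leaves trimethylated lysine 36 on histone H3 (H3K36me3), a mark that DNMT3A can bind. Methylation of lysine 4 of the same histone, usual at active promoters and CpG islands, keeps the enzyme away. Oocytes of 60–65 μm are still growing and the map is a snapshot of this process.

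The RNA-seq libraries had the markers of the labelled cell. All 10 oocyte markers lay at 0.5 RPKM or more in both libraries, from 11.6 to 619.5 RPKM in A and from 12.6 to 734 RPKM in B. Of 9 granulosa markers 3 reached 0.5 RPKM in both (Cyp19a1, Inha and Nr5a2), with a sum over the list of 7.68 RPKM in A and 7.11 RPKM in B against 2638 and 2766 RPKM for the oocyte list. None of 6 theca and stroma markers did, with sums of 0.892 and 0.914 RPKM. Of the blood and vessel markers, 5 had a row and Pecam1 alone passed, with sums over the list of 5.08 and 4.58 RPKM. The part of such cells in the results below was not tested. Over 24483 genes on chromosomes 1 to 19 the ranks of the 2 libraries had a correlation (Spearman) of 0.981. A gene is called expressed below where both libraries gave 0.5 RPKM or more, silent where both gave less than 0.1 RPKM, and weak otherwise. Of all 24483 genes, 38.9% were expressed by this rule, 49.7% were silent, and the 2 libraries disagreed about the threshold of 0.5 RPKM at 256 genes.

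The sequences at the starts of genes over the longest runs show what the map does not separate. They are given as RefSeq promoters of GRCm38 (250 bases before to 50 after the start), on the strand of the gene, with every CpG in capitals, for the most covered gene of each of the longest runs whose RefSeq start lay within 1 kb of the start in the expression table. The first set belongs to genes that hold a high run, with 37, 26 and 36 CpGs. Tbc1d5 starts on the minus strand (chr17:51179303-51179602), Plcb1 on the plus strand (chr2:134785914-134786213) and Vti1a on the plus strand (chr19:55315807-55316106).
Tbc1d5 start: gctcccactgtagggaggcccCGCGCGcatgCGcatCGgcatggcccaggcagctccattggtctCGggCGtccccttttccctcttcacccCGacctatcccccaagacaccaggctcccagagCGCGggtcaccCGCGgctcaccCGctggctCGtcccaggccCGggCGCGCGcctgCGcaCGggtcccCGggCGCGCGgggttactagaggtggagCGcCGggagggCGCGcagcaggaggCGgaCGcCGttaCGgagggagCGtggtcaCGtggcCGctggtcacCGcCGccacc
Plcb1 start: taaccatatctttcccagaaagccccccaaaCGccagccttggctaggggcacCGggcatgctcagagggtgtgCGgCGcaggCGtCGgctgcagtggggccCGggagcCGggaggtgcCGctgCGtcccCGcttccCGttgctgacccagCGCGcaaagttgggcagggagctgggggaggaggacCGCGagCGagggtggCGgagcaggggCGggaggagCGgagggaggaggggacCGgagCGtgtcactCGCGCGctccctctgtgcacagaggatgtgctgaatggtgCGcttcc
Vti1a start: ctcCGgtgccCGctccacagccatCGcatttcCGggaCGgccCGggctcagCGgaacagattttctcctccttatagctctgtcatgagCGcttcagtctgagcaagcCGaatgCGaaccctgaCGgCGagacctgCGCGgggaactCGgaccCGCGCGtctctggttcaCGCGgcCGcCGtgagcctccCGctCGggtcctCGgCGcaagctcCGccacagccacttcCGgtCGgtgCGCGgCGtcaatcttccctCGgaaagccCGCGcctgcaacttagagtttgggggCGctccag
The second set belongs to genes inside low runs, with 9, 21 and 27 CpGs. Bcl11b starts on the minus strand (chr12:108003365-108003664), Tle3 on the plus strand (chr9:61372116-61372415) and Atp2b2 on the minus strand (chr6:114042031-114042330).
Bcl11b start: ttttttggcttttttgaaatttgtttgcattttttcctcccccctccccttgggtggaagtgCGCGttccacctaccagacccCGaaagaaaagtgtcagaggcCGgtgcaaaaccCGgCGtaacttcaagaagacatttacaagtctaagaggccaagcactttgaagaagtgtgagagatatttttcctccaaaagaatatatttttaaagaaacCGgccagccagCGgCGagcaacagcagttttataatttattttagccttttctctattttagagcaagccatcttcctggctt
Tle3 start: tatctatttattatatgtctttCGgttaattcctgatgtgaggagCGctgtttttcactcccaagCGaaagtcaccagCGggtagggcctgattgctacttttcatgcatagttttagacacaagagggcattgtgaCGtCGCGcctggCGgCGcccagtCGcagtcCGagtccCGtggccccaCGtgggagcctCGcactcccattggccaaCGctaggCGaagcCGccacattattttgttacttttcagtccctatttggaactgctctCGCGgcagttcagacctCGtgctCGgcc
Atp2b2 start: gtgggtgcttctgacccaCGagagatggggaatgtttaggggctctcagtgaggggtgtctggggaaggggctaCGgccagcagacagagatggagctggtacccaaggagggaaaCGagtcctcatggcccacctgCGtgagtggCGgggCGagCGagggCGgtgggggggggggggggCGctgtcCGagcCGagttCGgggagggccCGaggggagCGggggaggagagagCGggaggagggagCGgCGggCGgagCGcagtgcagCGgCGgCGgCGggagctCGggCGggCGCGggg
In these promoters, 14 of 638 calls were methylated at Tbc1d5 (2.19%), 0 of 379 at Plcb1, which allows a share of up to 0.792%, and 18 of 812 at Vti1a (2.22%). At the genes of the low runs, 0 of 36 calls were methylated at Bcl11b, which allows up to 8.33%, 8 of 121 at Tle3 (6.61%) and 7 of 76 at Atp2b2 (9.21%). Both sets thus lay below 10% at the start, and over 31396 RefSeq promoters outside the X and Y chromosomes the median was 7 CpGs. To show the letters of the runs themselves, the 200-base block with 4 CpGs and no repeat-masked base that had the most calls is given on the plus strand, from the longest high run (chr17:50775001-50775200, within Tbc1d5) and from the longest low run (chr12:107498001-107498200, outside any gene of the table).
high run block: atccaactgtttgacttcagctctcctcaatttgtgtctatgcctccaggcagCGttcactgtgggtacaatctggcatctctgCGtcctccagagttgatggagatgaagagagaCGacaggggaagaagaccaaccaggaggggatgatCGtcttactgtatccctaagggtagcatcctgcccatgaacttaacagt
low run block: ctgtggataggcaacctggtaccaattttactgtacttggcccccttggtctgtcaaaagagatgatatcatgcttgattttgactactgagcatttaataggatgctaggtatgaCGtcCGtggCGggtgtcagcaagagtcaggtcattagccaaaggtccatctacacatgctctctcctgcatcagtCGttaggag
In the block of the high run 19 of 22 calls were methylated (86.4%, 95% Wilson interval 66.7% to 95.3%), and in that of the low run 3 of 77 (3.90%, interval 1.33% to 10.8%). The same calls placed these blocks in their runs, so that the contrast is given as an illustration. These intervals cover counting error only.

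Most of the genome was still little methylated at this stage. Of the 233748 windows, 20644 (8.83%) lay at 60% or more, 130512 (55.8%) lay under 15% and 82592 (35.3%) lay between. Over the 19 chromosomes the share of high windows ran from 6.51% on chromosome 3 to 10.6% on chromosome 11, and the share of low windows from 50.9% on chromosome 5 to 59.6% on chromosome 3. The order did not simply follow the density of expressed genes. Chromosome 11 had 6.26 expressed genes per Mb and chromosome 3 had 2.67, but chromosome 18, with the lowest density of 2.61, had 8.07% high windows, and chromosome 19, with 5.53, had 8.77%. The median window had 275 calls and a methylation of 12.8%, with quartiles of 7.59% and 31.0%. High windows had a median of 68.3% and low windows one of 8.02%. The distribution had 1 sharp maximum, with 72475 windows from 5% to under 10%, and above it a long shoulder that stayed almost level, with 6273 windows from 50% to under 55%, 6277 from 60% to under 65% and 6048 from 65% to under 70%. It fell away above that, to 788 windows from 80% to under 85% and none at 95% or more. The upper threshold thus crosses a continuous shoulder and not a gap. The 95% Wilson interval of the calls spanned 60% in 7152 of the high windows (34.6%) and in 7120 windows outside that class. It spanned 15% in 40245 of the low windows (30.8%) and in 19798 others. Calls from the 2 strands, which are separate cytosines of the same CpGs, gave a Pearson correlation of 0.931 over 225294 windows with 25 or more calls on each. Of windows that were high by the top strand alone, 77.96% were high by the bottom strand and 2 of 20563 were low.

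**Figure D1:**
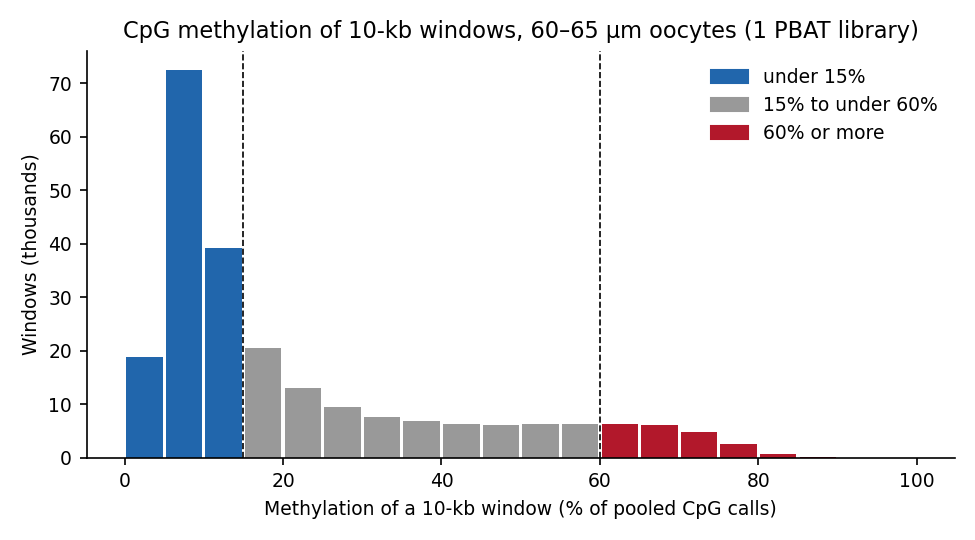
Number of 10-kb windows by CpG methylation in steps of 5 percentage points, with dashed lines at the thresholds of 15% and 60%. The highest bar, from 5% to under 10%, holds 72475 windows, and the bars from 45% to under 70% are of nearly equal height.

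High runs were short and low runs were long. Low windows were also more frequent (55.8% against 8.83%), and a more frequent class forms longer runs even where windows do not cluster. How much of the contrast this makes up was not tested. The median high run was a single window of 10 kb and the median low run 20 kb. The N50, the length at or above which runs hold 50% of the summed length, was 20 kb for high runs, with 20 or 30 kb on single chromosomes, and 70 kb for low runs, with 60 to 100 kb on single chromosomes. Of the high runs 57.3% were 1 window, 4752 were 20 kb or longer, 606 were 50 kb or longer and 30 were 100 kb or longer, and the longest spanned 170 kb. Among low runs 3162 were 100 kb or longer, holding 41.4% of the summed low length, 764 were 200 kb or longer and 42 were 500 kb or longer, and the longest spanned 1020 kb. High runs covered 206 Mb and low runs 1305 Mb. Lengths in this map are multiples of 10 kb, and the counts depend on the window size, the number of high runs falling to 4920 and their N50 rising to 40 kb in windows of 20 kb.

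**Figure D2:**
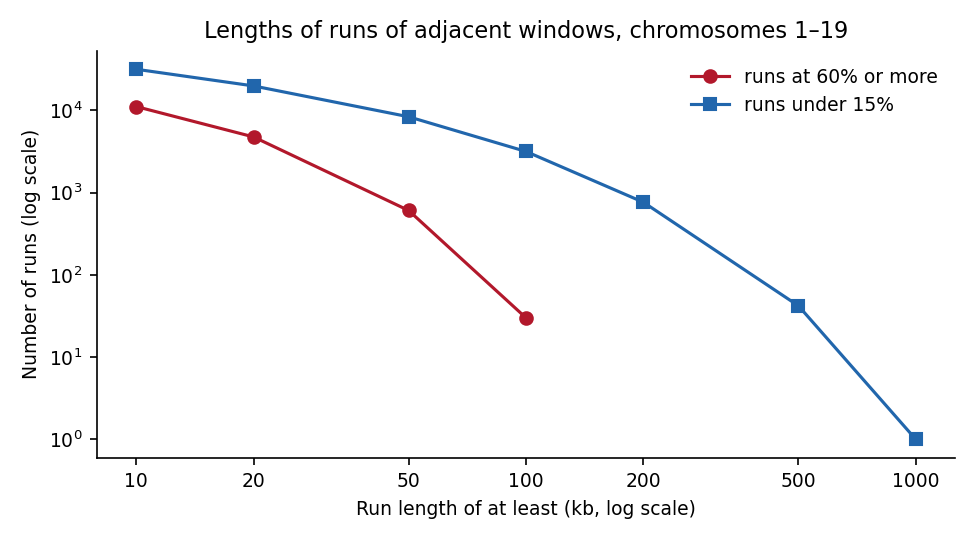
Number of runs of at least a given length (kb), both axes on a log scale, for high runs (circles) and low runs (squares) of chromosomes 1–19. High runs end at 170 kb, with 30 of 100 kb or longer, whereas 3162 low runs reach 100 kb and 42 reach 500 kb.

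At their edges high runs mostly met intermediate windows. Of the 22242 edges, 84.4% met a window between 15% and 60%, 14.2% met a low window directly and 1.37% a window with too few calls. A border that falls inside a fixed window can make that window intermediate, so that such neighbours are in part set by the grid. Moving outwards through intermediate windows, 53.7% of the edges reached a low window, after a median of 1 window (10 kb), and 43.4% reached another high run. Of the edges that reached a low window, 59.9% crossed at most 1 intermediate window and 26.4% crossed none. A second joining, chosen after the first results were seen, took all adjacent windows of 15% or more that held at least 1 high window. It gave 6290 stretches with a median of 60 kb, an N50 of 110 kb and a longest stretch of 660 kb, and 39.0% of their windows were high. Joining intermediate windows to high ones lengthens the stretches by construction. Of the length of these stretches, 60.6% lay in expressed genes.

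The 10 longest high runs each lay over the body of a single expressed gene that covered at least 96.6% of the run. The longest, of 170 kb (chr17:50750001-50920000), had a methylation of 75.4% (Wilson interval 73.9% to 76.8%, 3260 calls) with single windows from 63.9% to 86.4%. It lay in Tbc1d5, a gene of 446 kb for a GTPase regulator of endosome traffic, with 1.57 RPKM in A and 1.69 RPKM in B. Tbc1d5 had 76.2% of its length in high windows and 2.095% in low windows. A pair of runs had 150 kb. The first lay in Plcb1 (chr2:135270001-135420000, 70.4%), for a phospholipase C, with 1.06 and 1.07 RPKM, and the other in Stag1 (chr9:100740001-100890000, 73.4%), for a cohesin subunit, with 0.951 and 1.00 RPKM. Plcb1 was not methylated evenly, as 26.1% of its 689 kb was high and 44.1% was low. The runs of 140 kb lay in Vti1a (chr19:55400001-55540000), Parp8 (chr13:116850001-116990000), Ccdc91 (chr6:147490001-147630000) and Rngtt (chr4:33320001-33460000), with 71.6%, 74.1%, 71.2% and 75.3% methylation. Vti1a, a SNARE of the Golgi, had 4.13 and 4.37 RPKM, and Ccdc91 had 7.78 and 7.75 RPKM. Parp8 had 2.19 and 1.63 RPKM, and Rngtt, which caps messenger RNA, had 0.787 and 0.873 RPKM. Ccdc91 and Parp8 were high over nearly their whole length (89.3% and 90.9%). The runs of 120 kb lay in Wdfy3, Zfp407 and Fam172a, with 65.2%, 73.2% and 73.1% methylation. Wdfy3, a scaffold of selective autophagy, had 2.56 and 2.18 RPKM, the zinc finger gene Zfp407 had 2.40 and 2.27 RPKM, and Fam172a had 0.781 and 0.761 RPKM. None of these 10 host genes reached 10 RPKM, and 3 had less than 1 RPKM in A. A further gene, 9630028H03Rik, lies on the opposite strand of Plcb1 over 63.0% of that run, and was at 0 RPKM in both libraries.

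The 10 longest low runs held mostly silent genes and intergenic sequence, and expressed genes covered at most 0.798% of any of them. Their methylation lay between 6.00% and 7.88%, with 22146 to 66123 calls each. The longest (chr12:107080001-108100000, 1020 kb, 6.92%) has 18.1% of its length in 8 genes, among them Bcl11b, a transcription factor of T cells and neurons, with 0.0305 RPKM in A and 0.0184 RPKM in B. The second (chr9:60970001-61920000, 950 kb, 7.45%) holds the corepressor gene Tle3 with 0.00653 and 0.00522 RPKM. It ends inside Kif23, for a kinesin of cell division, which had 36.7 and 38.4 RPKM and 9.22% of its length in the run. The third (chr6:113810001-114640000, 830 kb, 6.00%) holds Slc6a11, a GABA transporter, and Hrh1, a histamine receptor, with the calcium pump gene Atp2b2 over 78.3% of its length, and in these the higher of the RPKM values was 0.0192. Runs of 770 kb held Prkce and Epas1 (chr17:86200001-86970000), for a protein kinase C and a transcription factor of the response to low oxygen, and Runx1 and Clic6 (chr16:92460001-93230000), the first a transcription factor of blood cells. Epas1 had 0.0860 and 0.0625 RPKM and Runx1 had 0.00516 and 0.00300 RPKM. The other runs were led by Nfia, a transcription factor (chr4:97390001-98150000, 760 kb), Grik3, a kainate receptor (chr4:125230001-125970000, 740 kb), Phactr1 (chr13:42330001-43070000, 740 kb), the NMDA receptor gene Grin2b (chr6:135460001-136180000, 720 kb) and Accn1, an older symbol for an acid-sensing ion channel gene (chr11:80780001-81490000, 710 kb). Grin2b had 0.0338 and 0.0244 RPKM over 444 kb, all of it in low windows.

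Over the whole map, high windows were mostly genic and lay in expressed genes. Of the length of high runs 83.2% lay inside genes (73.9% to 88.7% on single chromosomes), against 41.0% over all windows and 31.7% in low runs. Expressed genes alone covered 71.5% of the high length (62.2% to 78.2%), 28.4% of the intermediate length and 6.22% of the low length (4.33% to 10.6%), beside 19.8% of all windows. The ranges over chromosomes for high and low runs did not overlap. Silent genes covered 2.38% of the high length and 20.5% of the low length. Read the other way, 31.9% of the sequence in expressed genes was high, 50.6% intermediate and 17.5% low, whereas 78.6% of the sequence in silent genes alone was low and 1.45% was high. Longer high runs lay more often in expressed genes. At least 50% of the length lay in expressed genes for 67.8% of all high runs, 75.4% of the 4752 of 20 kb or longer, 80.2% of the 606 of 50 kb or longer and 27 of the 30 of 100 kb or longer. The other 3 of these 30 reached 50% with weak genes added. Starts of expressed genes were rare within high runs, with 91 of 11121 (0.818%) holding one, against 17.2% of all low runs, which are longer. Among runs of 100 kb or longer it was 2 of 30 high runs (6.67%). Of the 3162 low runs of 100 kb or longer, 72.9% touched no expressed gene, 25.5% touched no gene and 720 (22.8%) held the start of an expressed gene.

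**Figure D3:**
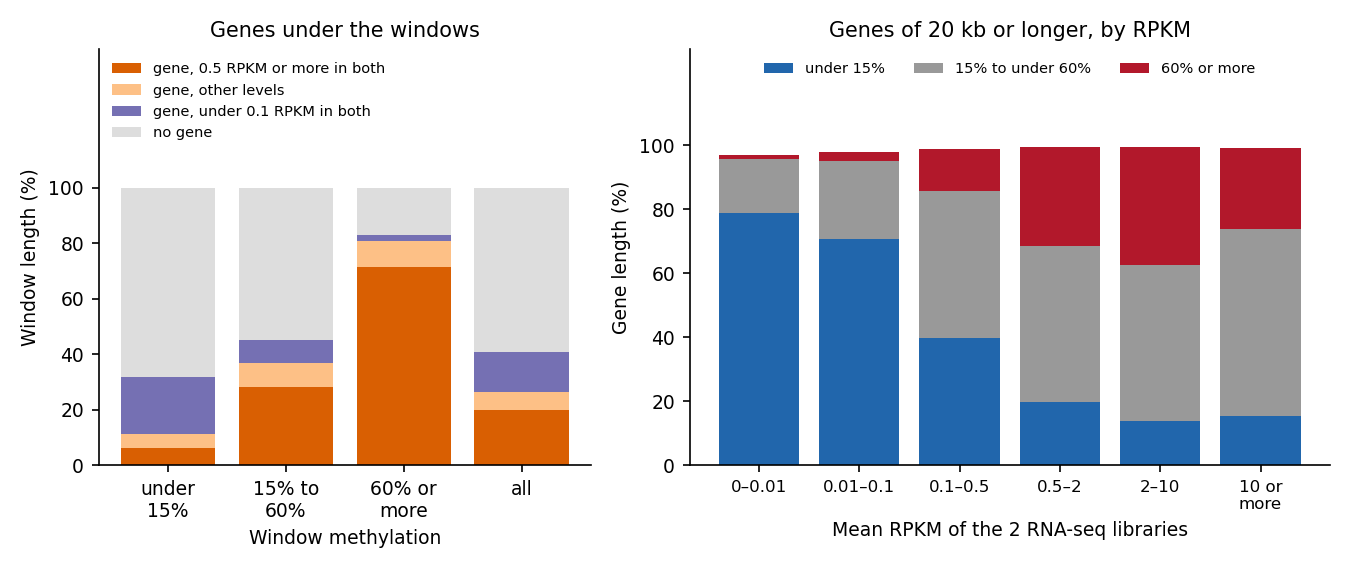
Left, share of window length (%) under expressed, weak and silent genes and outside genes, for windows under 15%, from 15% to under 60%, of 60% or more and all windows. Right, share of gene length (%) in the 3 window classes for genes of 20 kb or longer by mean RPKM, with uninformative windows left blank. Expressed genes make up 71.5% of the high length, and the high share of gene length is largest, 37.1%, from 2 to under 10 RPKM.

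The genes sorted the same way. A gene was placed in high or low runs where at least 50% of its length lay there. Of 2306 genes in high runs, 1793 (77.8%) were expressed, with 69.9% to 89.9% on single chromosomes, against 38.9% of all 24483 genes. Of 12146 genes in low runs, 1887 (15.5%) were expressed, with 10.2% to 24.2% on single chromosomes. The median RPKM was 2.19 in A and 2.15 in B for genes in high runs, 0.00346 and 0.00464 for genes in low runs, and 0.0932 and 0.0898 for all genes. For genes of 10 kb or longer, the expressed share was 86.8% of 1995 in high runs and 11.5% of 5571 in low runs. The share in high runs rested on the requirement of 50% of the length. Among genes with at least 90% of their length in high runs it was 31.9% of 351, below the 38.9% of all genes. Of these 351 genes 233 were shorter than 10 kb, and 208 were silent, 131 of them with at least 50% of their length inside an expressed gene. Among the 118 of 10 kb or longer 84 were expressed (71.2%).

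Methylation did not keep rising with RPKM. In genes of 20 kb or longer, high windows held 1.36% of the length of 2103 genes under 0.01 RPKM (mean of the 2 libraries), 2.86% from 0.01 to under 0.1 RPKM, 13.2% from 0.1 to under 0.5 RPKM, 30.9% from 0.5 to under 2 RPKM and 37.1% from 2 to under 10 RPKM. It was 25.2% for the 918 genes at 10 RPKM or more, in which 58.4% of the length was intermediate. The low share fell from 78.8% in the lowest class to 13.9% from 2 to under 10 RPKM and was 15.4% above that. Across 9912 genes of this length the rank correlation (Spearman) of RPKM with body methylation was 0.633 in A and 0.634 in B, and across the 5198 expressed ones it was -0.0644 in A and -0.0672 in B. Genes are not independent replicates, and the points share 1 PBAT library. Length counted too. From 2 to under 10 RPKM, high windows held 0.991% of the length of genes shorter than 5 kb, 15.2% from 5 to under 20 kb, 34.2% from 20 to under 50 kb, 40.0% from 50 to under 100 kb, 39.2% from 100 to under 200 kb and 34.8% at 200 kb or more. A window of 10 kb over a gene shorter than 5 kb holds more flank than gene, and the map does not resolve such genes.

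Along expressed genes, methylation rose behind the start and ended close to the gene end. This was measured in 1-kb bins at 583 expressed genes of 50 kb or longer with no other gene within 20 kb. Upstream, pooled methylation was 16.3% at 20 kb and 15.2% at 5 kb before the start. It fell to 3.83% in the bin of the start, where 385770 calls lay, and was 25.8% 3 kb, 39.7% 10 kb and 48.5% 50 kb into the gene. Near the other end it was 53.7% 10 kb before, 48.6% 2 kb before, 36.8% in the bin of the end, 20.7% 2 kb past it and 17.1% 4 kb past it. At 537 silent genes of the same kind it was 3.92% at the start and between 8.86% and 14.4% in all bins from 10 to 50 kb inside. In the flank it was 11.1% at 5 kb and 12.0% at 10 kb before the start, which lies within the range of the body, and between 13.8% and 22.1% in the bins from 20 to 50 kb before it. The 180 weak genes lay between, with 18.7% at 10 kb inside. With the body of 321 expressed genes of 100 kb or longer cut into 10 equal parts, the high share rose from 14.7% in the first part to 42.1% in the ninth and was 34.5% in the last, while the low share fell from 44.7% to 9.46%. In the 308 silent ones the high share was at most 2.55% in any part.

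**Figure D4:**
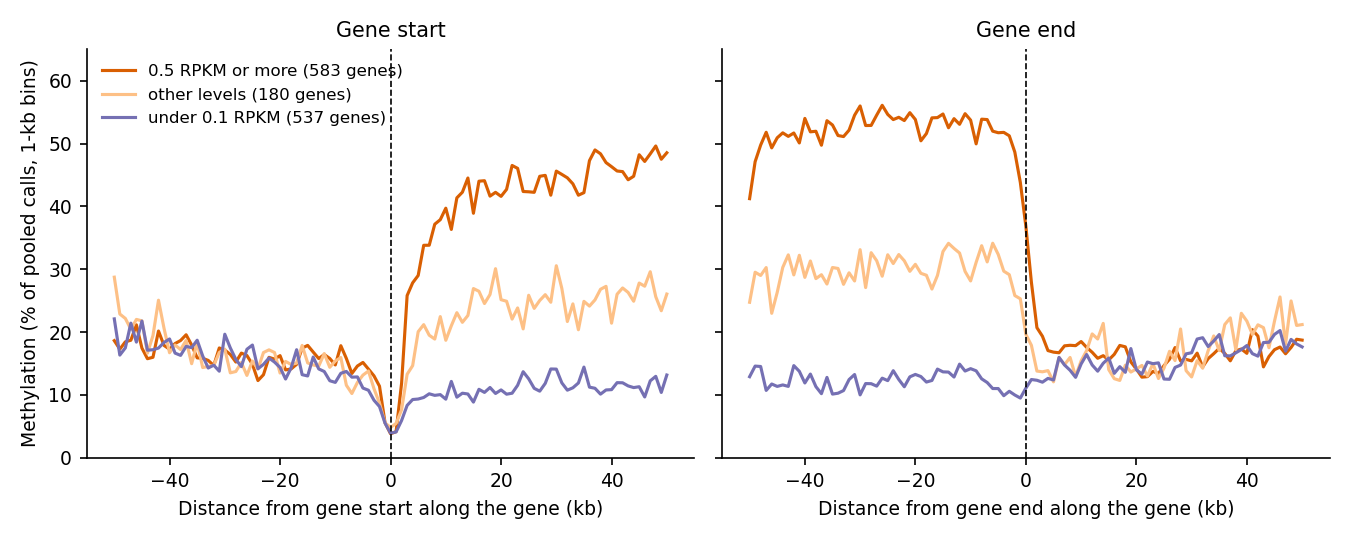
Pooled CpG methylation (%) in 1-kb bins from 50 kb before to 50 kb after the start (left) and end (right) of genes of 50 kb or longer without another gene within 20 kb, for expressed, weak and silent genes. All 3 lines drop below 5% at the start, and the line of expressed genes then climbs to 48.5% at 50 kb and falls from 48.6% to 20.7% within 2 kb on each side of the end.

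Most edges of the runs did not lie close to the start or end of an expressed gene. Of 3047 high runs of 20 kb or longer that lay wholly within exactly 1 expressed gene, the edge nearer the start was a median of 43.8 kb from it and the edge nearer the end a median of 32.5 kb from that, and 658 began within 10 kb of the start whereas 858 ended within 10 kb of the end. Over all 9504 edges of high runs of 20 kb or longer, 12.0% lay within 10 kb of the start and 15.6% within 10 kb of the end of an expressed gene, beside 7.01% and 6.91% of all window boundaries. For the edges of low runs of 100 kb or longer these were 10.2% and 11.8%.

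Some long expressed genes lay in low runs. Of 5202 expressed genes of 20 kb or longer, 1378 had at least 50% of their length in high runs, 336 had it in low runs and 35 had at least 90% in low runs. The 5 of highest mean RPKM among these 35 were Arl4a, a small GTPase (131 RPKM in A and 128 RPKM in B), Pnrc1, a nuclear receptor coactivator (15.9 and 15.1 RPKM), Rasa4, a regulator of Ras (13.7 and 13.4 RPKM), Meis2, a homeobox transcription factor (8.26 and 7.97 RPKM), and Esrrb, an orphan nuclear receptor (7.27 and 6.55 RPKM). Body methylation was 2.82% in Arl4a, 5.82% in Pnrc1, 7.78% in Meis2 and 9.24% in Esrrb, of which Meis2 spans 203 kb and Esrrb 161 kb. The 5 of highest mean RPKM with at least 90% of their length in high runs were Eif3e, a translation initiation factor (16.4 and 17.0 RPKM), Nup37, a nuclear pore protein (14.5 and 16.0 RPKM), 4930432K21Rik, Ccdc101 and Wdr43, with 12.3 to 16.4 RPKM in A and 12.3 to 17.0 RPKM in B. Their body methylation, pooled over calls, was below the 60% of the windows, with 29.4% in Eif3e, 39.1% in Wdr43 and 53.6% to 55.7% in the others. Arl4a thus lay far above any of these, and the ranges of both groups of 5 otherwise overlapped. The levels of these genes in smaller oocytes are given beside those of the long expressed genes in high runs, and the difference between both was not tested. In oocytes of 10–30 μm, 97.1% (A) and 98.5% (B) of the 1378 in high runs reached 0.5 RPKM, against 78.9% and 79.2% of the 336 in low runs and 93.8% and 94.6% of all 9532 expressed genes. In oocytes of 50–55 μm these shares were 99.3% and 99.1% against 93.5% in both libraries. The median RPKM of the 336 was 1.63 and 1.79 in the smallest class against 2.23 and 2.07 in the class of the map. For the 1378 it was 2.80 and 3.19 against 3.06 and 2.98. The 60–65 μm values chose these genes, so their own shares are 100% by construction, and the 336 lay nearer to the threshold of 0.5 RPKM.

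Silent genes in high runs were often part of an expressed one. Of 319 silent genes with at least 50% of their length in high runs, 173 (54.2%) had at least 50% of it inside an expressed gene, beside 6.79% of all 12164 silent genes. A further 134 (42.0%) touched no expressed gene, beside 89.2% of all silent genes. The RNA-seq libraries were strand-specific, but whether the table was counted by strand is not given in the sources used here, so that values of overlapping genes on opposite strands may share reads. The 5 longest silent genes with at least 90% in high windows were Vmn2r56, a vomeronasal receptor of 39.1 kb, 4933405E24Rik, Gm16638, Clcn1, the chloride channel of skeletal muscle, and 1700019A02Rik. Clcn1 was high over all of its 29.1 kb with a body methylation of 77.8% and 0.00175 and 0.00509 RPKM.

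A part of the high runs had no gene in the table. Of the 4752 high runs of 20 kb or longer 564 (11.9%) touched none, the longest with 90 kb (chr15:40290001-40380000, 68.1%). In the wider GENCODE M21 annotation of GRCm38, 304 of the 564 (53.9%) still touched no gene, whereas 170 (30.1%) had at least 50% of their length in one. Of 9331 low runs of this length without a gene in the table, 62.0% touched no GENCODE gene and 8.54% had at least 50% of their length in one. Among the longest, chosen after their values were seen, a run of 80 kb at chr10:5100001-5180000 overlaps Syne1, and one of 70 kb at chr6:115290001-115360000 (74.2%, 2452 calls) ends 1.22 kb before the start of Pparg in the table, a nuclear receptor gene with 2.68 and 2.92 RPKM. Reads outside the genes of the table were not used here.

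Gene lists chosen for the tissue are set against all 24483 genes, of which 9.42% lay in high runs, 35.1% in intermediate windows and 49.6% in low runs. Of 16 genes for known oocyte proteins, all were expressed and none lay in high runs, 9 (56.3%) lay in low runs, near the share of all genes, and 7 in intermediate windows. Gdf9, an oocyte growth factor, had 580 and 529 RPKM with a body methylation of 5.96%, and Zp3, a zona pellucida protein, 595 and 650 RPKM with 14.4%. These genes had a median length of 9.35 kb. Padi6, with 884 and 1006 RPKM, was 82.7% low over 15.3 kb. Intermediate members included Nlrp5 with 27.8% over 56.0 kb and Kit, the receptor of Kit ligand, with 34.4% over 81.8 kb. Among 17 genes for the methylation machinery 15 were expressed, 3 (17.6%) were in high runs (Dnmt3b, Hells and Kdm1a), 8 in intermediate windows and 4 (23.5%) in low runs, and the others reached 50% in no class. The gene of the de novo enzyme Dnmt3b and that of the cofactor Dnmt3l had 78.4% and 46.1% of their length in high windows, with 1.70 and 1.68 RPKM and with 11.3 and 8.25 RPKM. Dnmt3a, with 3.76 and 3.48 RPKM, had 27.7%, and the maintenance gene Dnmt1, with 376 and 389 RPKM, had none and a body methylation of 26.4%. Tet1, for a 5-methylcytosine oxidase, was silent at 0.0815 and 0.0770 RPKM and lay wholly in low windows, whereas Tet3 had 30.6 and 22.2 RPKM and was intermediate throughout.

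The 27 imprinted genes that have or lie beside a maternally methylated region were 5 in high runs (18.5%), 14 in intermediate windows and 4 in low runs (14.8%), and the rest reached 50% in no class. Igf2r, a receptor for insulin-like growth factor and lysosomal enzymes, was high over 77.5% of its length with 9.43 and 9.23 RPKM, Grb10 over 74.0%, Kcnq1, a potassium channel, over 68.8%, Jmjd1c over 56.2% and Trappc9 over 55.1%. Cdh15 (6.06% body methylation, 0.144 and 0.130 RPKM) and Sgce (8.13%, 0.0925 and 0.0914 RPKM) lay in low runs, as did Slc38a4 with 27.2% and Nespas with 25.7% body methylation, and Peg10, the neighbour of Sgce, had 50.9% with 0.419 and 0.381 RPKM. Of the 20 rows of the table for 19 very long genes 0 lay in high runs and 11 (55%) in low runs, the latter near the share of all genes, with body methylation between 9.63% (Cdh13) and 51.7% (Park2). Their median length was 1300 kb, and 12 rows were silent. Of all genes of 200 kb or more, 87.9% under 0.01 RPKM, 80.1% from 0.01 to under 0.1 RPKM and 35.8% from 0.1 to under 0.5 RPKM lay in low runs. High runs held 0%, 0% and 4.85% of these. Most of the 19 listed are genes of neural adhesion and synapse, but Fhit, Wwox, Macrod2 and Park2 encode enzymes with other roles. Pcdh9, a protocadherin, was the most expressed of them with 12.5 and 13.03 RPKM, and 71.001% of its 873 kb was low. Macrod2 had 2.53 and 2.57 RPKM and 47.3% in low windows.

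All 41 Hox genes, the patterning factors of the body axis, lay in low runs, with body methylation from 1.29% to 8.13%. So did 47 of 51 keratin-family (Krt) genes (92.2%) and 34 of 42 beta-defensin (Defb) genes (81.0%), beside 49.6% of all genes. These families were mostly silent, with 37 Hox, 36 Krt and 40 Defb genes silent. Of all 12164 silent genes 8982 lay in low runs. Receptor families of smell and pheromone sensing were also mostly silent, but a smaller share of their rows lay in low runs. Of 1103 olfactory receptor (Olfr) rows 647 (58.7%) lay in low runs and 17 in high runs, for the Vmn1r family it was 89 and 2 of 201 rows, and for the Vmn2r family 34 and 5 of 118. Intermediate windows held 355 Olfr, 80 Vmn1r and 35 Vmn2r rows, and the rest reached 50% in no class. The zinc finger (Zfp) family had 42 of 362 rows in high runs (11.6%, beside 9.42% of all genes) and 128 in low runs, with 65.7% expressed. The ribosomal protein names Rpl and Rps include near-identical copies, so that their RPKM is uncertain, and 59 of 93 and 36 of 54 lay in low runs. The median length was 0.957 kb in Olfr, 0.945 kb in Vmn1r, 4.11 kb in Hox, 3.18 kb in Defb, 1.19 kb in Rpl and 2.60 kb in Rps. The run counts of these families thus mostly describe the windows around the genes.

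Over all windows, the high and low classes had nearly the same base composition. GC content was 42.3% in both classes, with 40.9% to 43.9% over chromosomes in high and 40.8% to 44.4% in low windows. CpGs numbered 8.75 per kb in high, 8.72 in low and 8.44 in intermediate windows, and calls per kb were 41.2, 40.3 and 40.2. Within gene contexts the density of CpGs differed between the classes, and in opposite directions. Within expressed genes it was 9.03 per kb in high and 10.9 per kb in low windows, in genes of which none was expressed 7.87 and 8.98 per kb, and outside genes 7.56 and 7.19 per kb. Intermediate windows held more repeats, with 39.2% of bases masked (35.02% to 44.2% over chromosomes), against 28.9% in high (27.2% to 30.4%) and 30.5% in low windows (28.3% to 31.8%). This held outside expressed genes. Among windows that touched no gene, 48.7% of bases were masked in the intermediate, 38.7% in the high and 33.4% in the low class. In genes of which none was expressed it was 34.6% against 28.8% in high and 25.6% in low windows, whereas within expressed genes it was 27.8% against 27.0% in high and 26.4% in low windows. Outside genes the 40918 intermediate windows had a median methylation of 24.2%, and within expressed genes the 19659 had 43.4%.

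RRBS libraries, which were not used to draw the map, gave the same order of the classes. RRBS reads the CpG-rich ends of MspI fragments. At 60–65 μm the pooled methylation of high windows was 57.1% in A and 57.8% in B, that of intermediate windows 17.5% and 19.04% and that of low windows 1.77% and 1.55%. The ranges over chromosomes did not overlap, with 52.4% to 61.1% and 52.2% to 61.6% in high and at most 1.99% in low windows. Of 4052 high windows with 50 RRBS calls in both libraries, 38.7% reached 60% in both and 59 (1.46%) lay under 15% in both. Of 33212 low windows 98.1% lay under 15% in both and 1 reached 60% in both. Of 17075 intermediate windows 43.0% also lay under 15% in both, and 5.16% reached 60% in both. Low RRBS values were thus not particular to the low class, and over all windows the pooled RRBS level was 7.85% in A and 8.74% in B. In the longest high run RRBS gave 77.7% (121 calls) and 85.1% (67 calls), and in the longest low run 2.38% and 1.46%. In the run of Vti1a it gave 45.6% and 41.8% from 949 and 1104 calls, beside 71.6% by PBAT.

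The same windows were then read in smaller oocytes. The pooled level of high windows was 5.52% (A) and 4.77% (B) in oocytes of 40–45 μm. In those of 50–55 μm it had reached 32.6% (A) and 30.1% (B). Low windows gave 1.44% and 1.16% in the first of these classes and 2.43% and 2.47% in the second. At 40–45 μm the intermediate windows had 7.03% and 6.71%, above the high ones in both libraries, though the ranges over chromosomes overlapped. The medians over windows with 50 or more calls had the other order, with 3.26% and 2.08% in high and 2.43% and 1.49% in intermediate windows. From 50–55 μm on high windows lay above intermediate ones by either measure. No test over these 6 libraries was made. Both libraries of each class lay closer to one another than to those of the next in high windows.

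**Figure D5:**
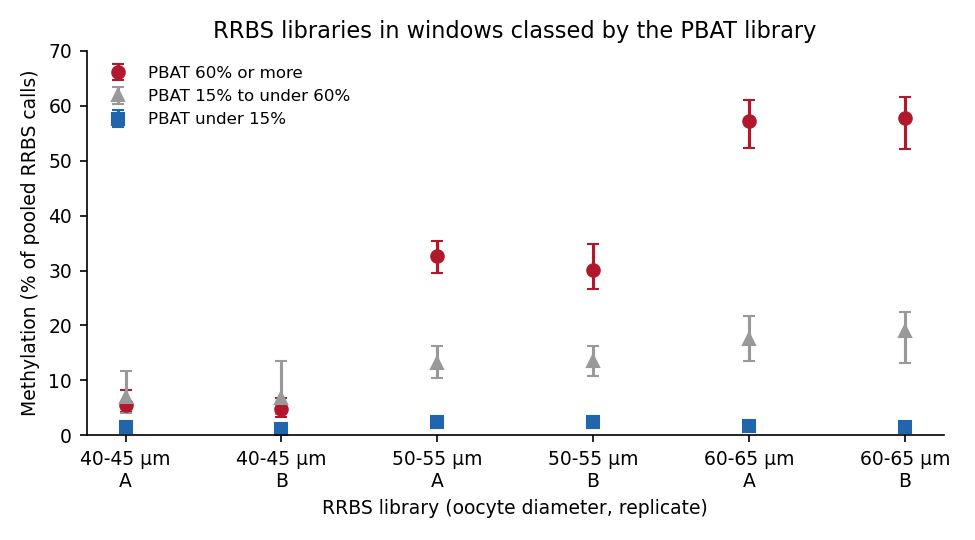
Pooled RRBS methylation (%) of the 6 RRBS libraries in windows that the PBAT library placed at 60% or more, from 15% to under 60% and under 15%, with bars from the lowest to the highest of the 19 chromosomes. High windows rise from 5.52% and 4.77% at 40–45 μm to 57.1% and 57.8% at 60–65 μm, and low windows stay at or below 3.07% in each library and chromosome.

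As a set, genes in high runs kept nearly the same median RPKM over the size classes, which does not describe single genes. The median RPKM of the 2306 genes in high runs was 1.998 (A) and 2.29 (B) in the smallest oocytes, of 10–30 μm. It was 2.01 and 2.11 in the class of 40–45 μm and 2.13 and 2.15 in that of 50–55 μm, against 2.19 and 2.15 in the class of the map and 2.16 in the single GV (germinal vesicle, fully grown) library. The share at 0.5 RPKM or more lay between 76.9% and 79.0% in all 9 libraries. For the 12146 genes in low runs this share lay between 15.2% and 16.2%. For the median RPKM of genes in high runs, the spread between replicates A and B of 10–30 μm was as wide as the whole range over growth.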

How the data were processed

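PBAT was measured in 1 library, RNA-seq at 60–65 μm in 2 and RRBS in 6, and all were mapped by the authors to GRCm38, with the tools listed in their processing notes (Trim Galore 0.3.5 and Bismark 0.10.0 for PBAT, Bismark 0.14.0 for RRBS, Trim Galore 0.2.8 and TopHat2 2.0.9 for RNA-seq). PBAT reads were deduplicated by the authors and RRBS reads are not stated to have been. The methylation files deposited hold, for each CpG cytosine, the methylated and unmethylated read counts. A further column, also made by the authors, gives the percent methylated, and here it was used only to check the counts. The PBAT library held 99039028 calls, 94501474 of them on chromosomes 1 to 19, and the RRBS libraries 30000113 to 57319823. The expression table of the authors gives RPKM per gene and library, not raw counts, and read numbers from the sequencing statistics were not used here. The libraries were strand-specific, and the methods name Cufflinks and SeqMonk for RNA-seq. Which of them made this table, and whether it counted by strand, are not given in the sources used here. One alignment was kept per read, so RPKM of near-identical genes is uncertain.

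Calls were summed in 10-kb windows from position 1 (minimum of 50 calls), windows of 60% or more and under 15% were joined into runs, and each base of the 24483 table genes on chromosomes 1 to 19 was assigned to the highest class among expressed, weak and silent. Body methylation pools the calls between gene start and end. The named genes were those covering at least 50% of each of the 10 longest high runs, up to 3 genes by overlap in the 10 longest low runs, the 5 of highest mean RPKM with at least 90% of 20 kb or more in low and in high runs, the 5 longest silent ones with at least 90% in high windows, and members of the lists. With 1 PBAT library no test over samples was possible for the map, and windows and genes are not replicates. No test was made over the RRBS or RNA-seq libraries either. The classes, members and lists were chosen with earlier results of these data known. Sequences came from RefSeq and the GRCm38 reference. Steps were tested on simulated data and run in Python 3.11.15 with numpy 2.4.6, pandas 2.3.3 and matplotlib 3.10.9. Alternatives changed the window, minimum, thresholds, strands, RPKM threshold and gene rules.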

Additional observations from a re-analysis of the deposited data

Results flagged for a closer look

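The following 3 values come from calls of the PBAT library outside chromosomes 1 to 19, which no comparison above used. No control library was at hand for them, and each lies above the limit that a count of 0 allows. On the Y chromosome 40.1% of 84358 calls were methylated (95% Wilson interval 39.7% to 40.4%), although oocytes carry no Y chromosome. On the mitochondrial genome 3.45% of 806554 calls were methylated (3.41% to 3.49%). On the X chromosome 6.24% of 14700 windows lay at 60% or more, 53.3% lay between the thresholds and 40.4% lay under 15%, with a median of 163 calls a window, against 8.83%, 35.3% and 55.8% with a median of 275 calls on chromosomes 1 to 19. The share of high windows on the X chromosome was below that of each of the 19 chromosomes, the lowest of which had 6.51%. The low runs of the X chromosome had an N50 of 40 kb. The cause of these values was not tested.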

How the results depend on the processing

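No paired analysis was possible because the map comes from 1 library and no result from a test. In windows of 20 kb there were 4920 high and 17240 low runs with N50 values of 40 and 120 kb, a larger unit by construction, 85.1% of the high length lay in genes and 75.1% of the genes in high runs were expressed. With a minimum of 200 calls 86.2% of the high length lay in genes and 18.1% of the genes in low runs were expressed. Thresholds of 50% and 20% gave N50 values of 30 and 100 kb, 78.2% of the high length in genes and 17.8% of the genes in low runs expressed. The mean over CpG positions gave 83.8% and 14.4% for these. The share of high length in genes was 82.3% on the top strand and 82.2% on the bottom strand, and 71.5% with expressed genes alone. The expressed shares of genes in high and low runs were 85.6% and 24.1% at 0.1 RPKM, 67.8% and 12.7% at 1 RPKM, 31.9% and 12.4% with 90% of the gene length required, and 86.8% and 11.5% for genes of 10 kb or longer. Leaving out either RNA-seq replicate gave 78.1% to 78.4% for high runs and 15.8% to 16.0% for low runs. Of 92 values under all alternatives, 49 stayed close to the value reported (counts within 1.5 times, N50 within 1 SD over chromosomes, shares within their 95% Wilson interval) and 43 moved further. The ratio of the expressed shares in high and low runs stayed between 2.57 and 7.55, but with 90% of the gene length required the share in high runs fell below the 38.9% of all genes. Apart from the window size, the cause was not tested. With a median of 275 calls a window, the class of a window near a threshold is not fixed by counting, and nothing shorter than 10 kb is resolved. A second PBAT library was not analysed here, and between oocyte pools only the RRBS libraries of this size class could be compared.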

Other observations

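The windows between the thresholds also formed runs, 38897 in all, with a median of 10 kb, an N50 of 30 kb and a longest run of 320 kb. Long ones were fewer than among low runs, with 398 of 100 kb or longer against 3162 low runs.

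The 35 expressed genes of 20 kb or longer with at least 90% of their length in low runs, which include Arl4a, Meis2 and Esrrb, are given here in the other size classes. The share at 0.5 RPKM or more was 74.3% (A) and 71.4% (B) at 10–30 μm (93.8% and 94.6% for all 9532 expressed genes), 94.3% and 88.6% at 50–55 μm and 97.1% in the single GV library. Their median was 1.51 and 1.21 RPKM at 60–65 μm, and 1.94 RPKM in GV oocytes. The genes were chosen for reaching 0.5 RPKM at 60–65 μm, so that the share in any other class could only be lower, and no difference was tested.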
